A study of Mus musculus with 18 samples.

Results

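Cohesin is a ring of proteins that holds sister chromatids together from DNA replication to mitosis and folds chromosomes into loops. Described here are 10 genes of its subunits and regulators, found in the count table by symbol through their mouse Ensembl identifiers, out of 50689 features in all. Each of the 10 matched 1 row. They were taken by name, from a list made with earlier results of these data known. RNA was sequenced from proliferating satellite cells (muscle stem cells) grown from the tibialis anterior of C57BL6 mice. The 9 scKO libraries (Pax7-CreERT2/+;Hoxa10f/f) came from cells given 4-hydroxytamoxifen at 1 µM for 2 days. The 9 control libraries (Hoxa10f/f) came from cells for which the labels give neither Cre nor that agent. Both groups carry floxed Hoxa10, and the Cre of scKO, driven by the satellite cell gene Pax7, removes it once induced. Loss of Hoxa10, the Cre and the agent cannot be told apart. The labels give no ages and do not say whether each library is a different animal or culture, so p-values measure the spread between these libraries, which may be technical.

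In the deepest libraries, RNA of Esco2 was lower in scKO by 0.89 on the log2 scale, while no core subunit and no loading or release factor passed the test. That was 1 of 10 genes called in these libraries, where 14.3% of tested genes were called. Across all 18 libraries, 0 of the 9 genes that passed the filter on low counts were called, where 0.679% of tested genes were. Esco2 did not pass that filter over all libraries, and without the filter its log2 fold change there was -0.74 (adjusted p = 0.219 by edgeR). The Esco2 call was narrow: it was lost in 4 of the 5 fits that each left out 1 library. Partner lists were also chosen with results of these data known. In the same deep libraries 9 of 13 genes that act at replication forks in cohesion were called lower in scKO. So were 10 of 13 genes on a list of the separase pathway and cohesin protection, where 7.03% of tested genes were. The fork count was 5 without control 1 or without scKO 7. Across all 18 libraries, 0 of 6 and 1 of 11 tested genes of these lists were called lower, where 0.352% of tested genes were. In the libraries of fewer counts alone, 0 of 6 and 0 of 11 were called, where 0.0434% of tested genes were.

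The ring is built from Smc1a and Smc3, long ATPases that join at both ends, and from Rad21, the kleisin that closes it. Stag1 or Stag2 binds Rad21 as an alternative further subunit. Nipbl loads the ring onto DNA, and Wapl, with Pds5a or Pds5b, opens it again. Esco2 acetylates Smc3 while DNA is copied, which protects the ring from Wapl and so locks it around sister chromatids. Esco2 is known as a gene of S phase, whereas core subunits are also needed outside S phase for chromosome looping.

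Library totals ranged from 420197 to 5986128 unique molecular identifiers (UMIs), which count captured RNA molecules. The 5 libraries over 2000000 are called deep (scKO 6, 7 and 9; control 1 and 2) and the other 13 shallow (6 scKO, 7 control). Counts stopped at a limit equal to the number of different UMIs of 6 bases, so counts of abundant genes are compressed in deep libraries. Levels are CPM, counts scaled to library totals adjusted by TMM, and levels of different genes are not compared, since gene length was not taken into account. Hoxa10, the targeted gene, was lower in scKO with a log2 fold change of -2.54 (SE 0.25, adjusted p = 3.01e-06 by edgeR). Its level was 1.94 to 10.6 CPM in scKO libraries and 15.3 to 66.4 CPM in control libraries, so the groups did not overlap. All 11 markers of satellite cells and myoblasts were detected. Their summed level was 3833 to 4255 CPM in deep scKO and 3672 to 4639 CPM in deep control. In shallow libraries it was 11862 to 14939 CPM in scKO and 10402 to 16359 CPM in control. Deep counts of Myod1 and Chrna1 were 3875 to 4047, near the limit, so a difference between groups in the deep sums may be compressed. Of the 11, Myf5 alone was called in deep libraries, where 14.3% of tested genes were called. It was lower in scKO (log2 fold change -0.33, adjusted p = 0.035 by edgeR). In shallow libraries 0 of 11 were called. Summed Schwann cell markers were at 22.5 to 44.1 CPM in deep scKO and 6.99 to 12.4 CPM in deep control, and at 9.11 to 80.6 CPM in shallow scKO and 27.5 to 146 CPM in shallow control. In deep libraries Sox10 (log2 fold change 1.96) was called higher, 1 of 3 tested Schwann markers, where 14.3% of tested genes were called. Summed smooth muscle and pericyte markers were at 271 to 307 CPM in deep scKO and 221 to 269 CPM in deep control. Of 4 tested there, Abcc9 (1.19) and Myh11 (1.61) were called higher, and 1 was negative, where 14.3% of tested genes were called. The shallow sums of this list were 318 to 441 CPM in scKO and 258 to 362 CPM in control, with 3 of 3 tested markers positive. Myh11 was not tested there and went the other way, with means of 2.81 CPM in scKO and 7.88 CPM in control. It had 1 to 3 counts per shallow scKO library and 1 to 8 per shallow control library. Summed fibro-adipogenic markers were at 94.6 to 105 CPM in deep scKO and 70.4 to 88.7 CPM in deep control. There 0 of 5 tested markers were called and all 5 had positive fold changes. Their shallow sums were 99.3 to 193 CPM in scKO and 111 to 222 CPM in control, with 3 of 3 tested markers negative. Summed tendon markers were at 302 to 334 CPM in deep scKO and 257 to 308 CPM in deep control. Their sums were 188 to 534 CPM in shallow scKO and 137 to 499 CPM in shallow control. Scx alone of the 3 was detected in all 18 libraries. Summed endothelial markers were at 6.58 to 46.5 CPM in scKO and 5.98 to 55.6 CPM in control. Summed leukocyte markers were at 0 to 11.8 CPM in scKO and 1.39 to 9.22 CPM in control. Among fat markers, Plin1 and Cidec were at 0 in every library, and Adipoq held at most 1 count. The part of these other cells in the results below was not tested, and fewer cells of a type and less RNA per cell cannot be told apart in bulk RNA.

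RefSeq promoter windows were held for 6 of the 10 genes, and those of the 3 with the most negative fold changes across all libraries are shown, to let the upstream sequence be read beside the values. Letters run 5′ to 3′ up to the annotated gene start. Capitals mark exact matches, on either strand, to E2F sites, spelled TTCCCGC, with the other spellings TTGGCGC, then also TTCGCGC, and lastly TTGCCGC, or to the CCAAT box. The windows are from GRCm38.p6: Pds5a at chr5:65698274-65698486 on the minus strand, Smc3 at chr19:53600146-53600395 on the plus strand and Smc1a at chrX:152016178-152016427 on the plus strand.
Pds5a: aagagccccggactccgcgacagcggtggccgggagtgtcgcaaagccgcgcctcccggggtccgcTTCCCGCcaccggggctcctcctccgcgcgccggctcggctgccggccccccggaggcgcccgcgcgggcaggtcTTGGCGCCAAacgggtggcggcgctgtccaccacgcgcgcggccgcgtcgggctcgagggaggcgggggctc
Smc3: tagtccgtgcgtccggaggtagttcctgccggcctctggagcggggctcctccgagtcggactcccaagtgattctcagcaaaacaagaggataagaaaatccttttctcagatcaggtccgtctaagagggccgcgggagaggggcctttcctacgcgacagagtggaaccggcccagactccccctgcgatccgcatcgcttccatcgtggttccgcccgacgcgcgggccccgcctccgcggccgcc
Smc1a: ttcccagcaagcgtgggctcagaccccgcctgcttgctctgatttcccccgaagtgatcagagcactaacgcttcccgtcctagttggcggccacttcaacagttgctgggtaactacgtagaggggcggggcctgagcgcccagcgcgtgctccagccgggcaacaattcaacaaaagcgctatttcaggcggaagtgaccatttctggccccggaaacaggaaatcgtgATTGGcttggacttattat

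Pds5a held 3 E2F matches, 2 of which overlap as a palindrome 100 to 109 bases before the RefSeq start. The last 37 bases before that start lie inside the gene as annotated by GENCODE and are not printed above. Smc1a held 1 CCAAT match on the opposite strand, 15 to 19 bases before its start, and Smc3 held none of these letters. Of the other windows, not printed, Stag1 held 2 E2F matches and 1 CCAAT match, and Wapl held 2 CCAAT matches. Pds5b held 1 E2F match, 1 CCAAT match and 1 match to the CHR element TTTGAA. The Stag1 window, all 250 bases, lies inside the gene as annotated by GENCODE. So do the last 88 bases of the Pds5b window, which hold all of its matches. Among all 32851 RefSeq windows of 250 bases, 7.89% held an E2F match, 17.1% a CHR match (TTTGAA, or its other spelling TTCGAA) and 33.8% a CCAAT match. A match is a string of letters and not a shown binding site.

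The first question was whether the core ring differed between scKO and control. With depth class as a covariate, 0 of 5 core subunits and 0 of 4 loading and release factors were called at an edgeR adjusted p under 0.05, where 0.679% of 7662 tested genes were called. The lowest adjusted p among them was 0.231, for Pds5a. Of these 9 genes, 7 had a negative log2 fold change, against 51.6% of all tested genes, and the median was -0.09, against -0.01 over all tested genes. The deep comparison gave a negative value for 6 of 10 genes, against 50.2% of tested genes, and the shallow one for 7 of 9, against 54.2%. Their medians were -0.10 in deep and -0.18 in shallow libraries. In the shallow comparison 0 of 9 were called, where 0.0434% of 6906 tested genes were called and 0.0145% were called lower; 2 of 9, Pds5a and Smc3, were lower at an unadjusted p under 0.05, as were 3.13% of tested genes. With depth class as a covariate and no adjustment, Pds5a, Smc3 and Smc1a were lower at p under 0.05, as were 5.99% of tested genes.

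**Figure D1:**
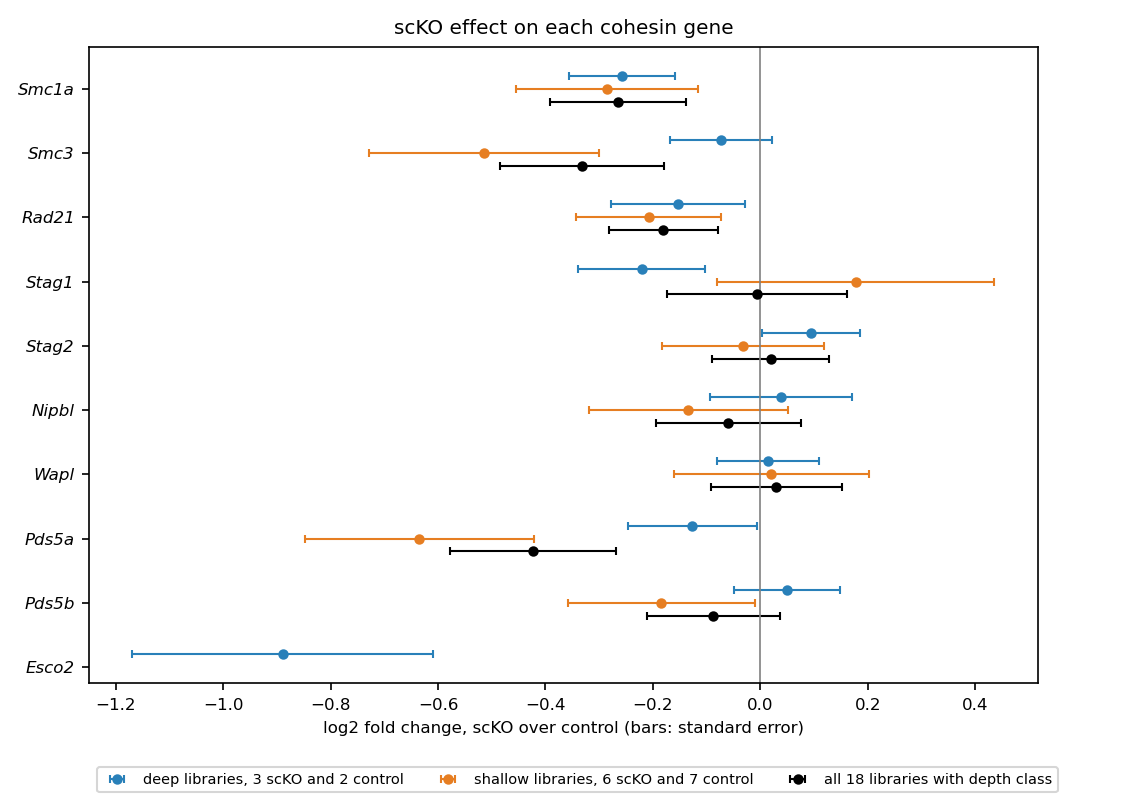
Log2 fold change (scKO over control, horizontal axis) of each gene (rows) with depth class as a covariate, in deep libraries and in shallow libraries; points are edgeR estimates and bars are ±1 SE. Esco2 passed the filter on low counts in deep libraries alone, at -0.89; the lowest of the other values are those of Pds5a (-0.63) and Smc3 (-0.51) in shallow libraries, and neither passed the test.

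Smc1a, one of the paired ATPases (chrX:152016428-152062694), was at 173, 146 and 159 CPM in deep scKO 6, 7 and 9, and at 201 and 177 CPM in deep control 1 and 2. Every deep scKO library lay below both deep controls, by a gap that is small beside the distance between the controls. Its log2 fold change in deep libraries was -0.26 (SE 0.10, adjusted p = 0.0998 by edgeR). In shallow libraries its lowest, median and highest levels were 303, 367 and 509 CPM in scKO and 332, 487 and 648 CPM in control, and the groups overlapped. There the log2 fold change was -0.29 (SE 0.17, adjusted p = 0.822 by edgeR). Smc1a was thus of like sign and size in both classes without passing in either.

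Smc3, the ATPase that Esco2 acetylates (chr19:53600398-53645833), was at 83.1, 79.3 and 80.8 CPM in deep scKO 6, 7 and 9, and at 80.7 and 87.7 CPM in deep control 1 and 2. These groups overlapped, with a log2 fold change of -0.07 (SE 0.09, adjusted p = 0.668 by edgeR). Shallow libraries had 31.3, 43.5 and 68.3 CPM (lowest, median, highest) in scKO and 55.6, 60.9 and 105 CPM in control, from 19 to 44 counts in scKO and 20 to 57 counts in control. Most shallow scKO libraries lay below every shallow control, but scKO 1 and scKO 5 lay among them. The shallow log2 fold change was -0.51 (SE 0.21, adjusted p = 0.785 by edgeR). The test of whether the scKO effect differed between classes gave a difference, deep minus shallow, of 0.45 (SE 0.31, adjusted p = 0.942 by edgeR), where 0% of tested genes were called.

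Rad21, the kleisin that separase cuts at anaphase (chr15:51962240-51991747), was at 407, 367 and 379 CPM in deep scKO 6, 7 and 9, and at 476 and 371 CPM in deep control 1 and 2. The controls differed from each other by more than the scKO libraries did, and scKO 7 alone lay below both. The deep log2 fold change was -0.15 (SE 0.13, adjusted p = 0.461 by edgeR). Rad21 held 2589 to 2875 counts in deep scKO libraries and 2563 and 2972 counts in deep control libraries. These are high enough against the limit on counts for UMI collisions to compress its differences. Over 5 alternative fits of all deep libraries, the correction for UMI collisions among them, its log2 fold change was -0.17 to -0.14 and never passed. In shallow libraries it was at 815, 1092 and 1213 CPM (lowest, median, highest) in scKO and 1048, 1140 and 1452 CPM in control, with a log2 fold change of -0.21 (SE 0.14, adjusted p = 0.822 by edgeR). The shallow groups overlapped.

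The alternative subunits Stag1 and Stag2 had fold changes of opposite sign in deep libraries, neither of which passed. Stag1 (chr9:100597798-100959375) was at 49.7, 39.8 and 46.1 CPM in deep scKO 6, 7 and 9, and at 50.5 and 53.4 CPM in deep control 1 and 2 (log2 fold change -0.22, SE 0.12, adjusted p = 0.237 by edgeR). Stag2 (chrX:42149317-42277185) was at 179, 166 and 174 CPM in deep scKO 6, 7 and 9, and at 169 and 152 CPM in deep control 1 and 2 (log2 fold change 0.09, SE 0.09, adjusted p = 0.539 by edgeR). Stag1 in scKO 6 lay just below the lower control, and Stag2 overlapped. The log2 ratio of Stag2 to Stag1 counts within a library was 1.85, 2.06 and 1.92 in deep scKO and 1.74 and 1.51 in deep control. In shallow libraries the ratio was 2.11 to 3.62 in scKO and 2.46 to 3.89 in control, and the groups overlapped. Shallow levels were 14.6, 27.4 and 46.1 CPM (lowest, median, highest) of Stag1 in scKO and 14.9, 24 and 33.2 CPM in control. Those of Stag2 were 160, 189 and 215 CPM in scKO and 146, 183 and 231 CPM in control. Both overlapped, with shallow log2 fold changes of 0.18 (SE 0.26) for Stag1 and -0.03 (SE 0.15) for Stag2.

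**Figure D2:**
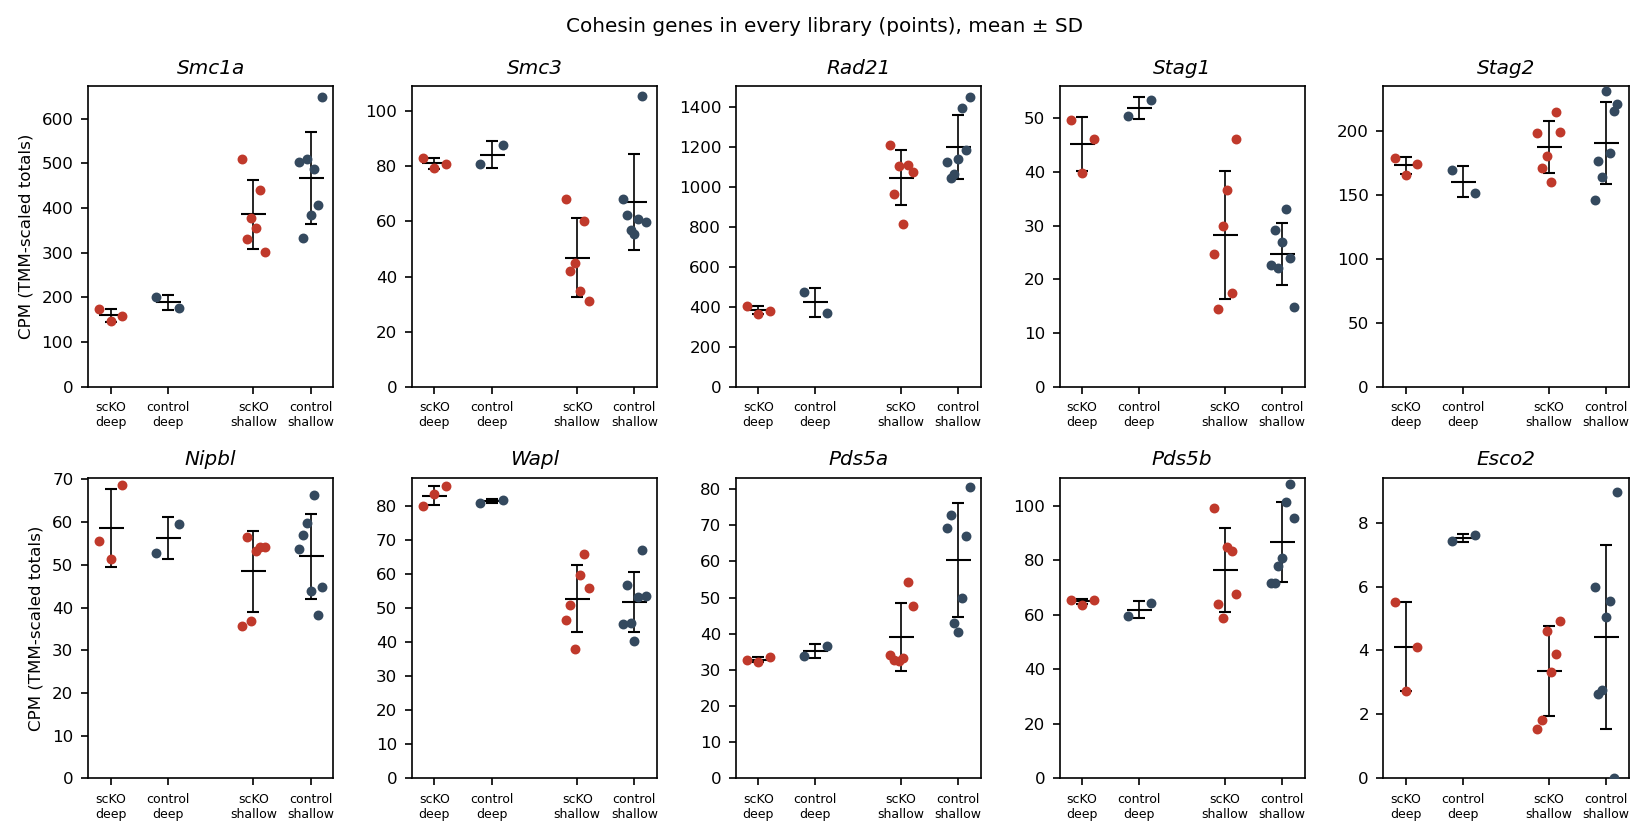
Level of each gene (CPM on TMM-scaled totals, vertical axis from 0) in every library, by depth class and group; each point is 1 library and bars are the mean ± SD. In deep libraries Smc1a, Stag1, Pds5a and Esco2 lie below both controls in all 3 scKO libraries, and in shallow libraries the groups overlap for all 10 genes.

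The second question was whether factors that load and release the ring differed. Nipbl, the loader (chr15:8290617-8444463), was at 55.6, 51.3 and 68.8 CPM in deep scKO 6, 7 and 9, and at 52.7 and 59.7 CPM in deep control 1 and 2 (log2 fold change 0.04, SE 0.13, adjusted p = 0.882 by edgeR). Wapl, which opens the ring (chr14:34673928-34747983), was at 80.1, 83.6 and 85.9 CPM in deep scKO 6, 7 and 9, and at 81.1 and 81.9 CPM in deep control 1 and 2 (log2 fold change 0.01, SE 0.09, adjusted p = 0.942 by edgeR). Neither gene separated the groups. Shallow Nipbl was at 35.7, 53.7 and 56.5 CPM (lowest, median, highest) in scKO and 38.3, 53.8 and 66.4 CPM in control. Shallow Wapl was at 38.1, 53.5 and 65.9 CPM in scKO and 40.4, 53.5 and 67.1 CPM in control. The shallow medians of both genes were nearly equal between groups, with log2 fold changes of -0.13 (SE 0.19) for Nipbl and 0.02 (SE 0.18) for Wapl.

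Pds5a, which together with Wapl releases the ring (chr5:65605721-65698273), had the most negative fold change of the 9 genes tested over all libraries, -0.42 (SE 0.15, adjusted p = 0.231 by edgeR). In shallow libraries it was at 32.3, 33.7 and 54.3 CPM (lowest, median, highest) in scKO and 40.4, 67.1 and 80.7 CPM in control, from 18 to 29 counts in scKO and 24 to 58 counts in control. All 6 shallow scKO libraries lay below the mean of the shallow controls, but scKO 5 and scKO 8 lay within the control range. The shallow log2 fold change was -0.63 (SE 0.21, adjusted p = 0.699 by edgeR). Deep libraries had 32.9, 32.0 and 33.5 CPM in scKO 6, 7 and 9, and 34.0 and 36.7 CPM in control 1 and 2, a log2 fold change of -0.13 (SE 0.12, adjusted p = 0.536 by edgeR). All deep scKO libraries lay below both controls, by a narrow margin. The deep minus shallow difference of the scKO effect was 0.52 (SE 0.30, adjusted p = 0.910 by edgeR). Pds5a overlaps 5 other annotated genes, of which Gm42727, on the opposite strand, held 246 counts over the 18 libraries; use of strand in counting is not given in the sources used here.

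Pds5b, the paralog of Pds5a (chr5:150673739-150810690), was at 65.4, 63.7 and 65.4 CPM in deep scKO 6, 7 and 9, and at 59.6 and 64.2 CPM in deep control 1 and 2 (log2 fold change 0.05, SE 0.10, adjusted p = 0.788 by edgeR). In shallow libraries it was at 58.9, 75.4 and 99.3 CPM (lowest, median, highest) in scKO and 71.5, 80.9 and 108 CPM in control (log2 fold change -0.18, SE 0.17, adjusted p = 0.856 by edgeR). The groups overlapped in both classes. The log2 ratio of Pds5b to Pds5a counts within a library was 0.99, 0.99 and 0.96 in deep scKO and 0.81 and 0.81 in deep control. In shallow libraries it was 0.50 to 1.54 in scKO and -0.03 to 1.03 in control. These ratios are a description of each library and were not tested.

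The third question was whether Esco2, the gene tied to replication, differed where the core did not. Esco2 (chr14:65819038-65833994) had 39, 21 and 28 counts in deep scKO 6, 7 and 9, and 40 and 61 counts in deep control 1 and 2. These counts correspond to 5.52, 2.75 and 4.10 CPM in scKO and 7.42 and 7.62 CPM in control. All scKO libraries lay below both controls, and the controls were closer to each other than the scKO libraries were. Esco2 fell in scKO, with a log2 fold change of -0.89 (SE 0.28, adjusted p = 0.0486 by edgeR). It was the 1 gene called among the 10 in the deep comparison, where 14.3% of 13136 tested genes were called and 7.03% were called lower. A share of 1 in 10 is near that background. The edgeR adjusted p was 0.108 without control 1, 0.140 without control 2, 0.181 without scKO 7, 0.0924 without scKO 9 and 0.0199 without scKO 6, while the log2 fold change stayed between -1.16 and -0.66. With DESeq2 the log2 fold change was -0.89 with an adjusted p of 0.142.

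In shallow libraries Esco2 was near the limit of detection and did not pass the filter on low counts. It had 1 to 4 counts per scKO library and 0 to 5 counts per control library, where 3 counts correspond to 3.46 to 5.81 CPM in scKO and 3.59 to 8.96 CPM in control. Summed over libraries, there were 13 counts in 6 scKO libraries (2.98 CPM on plain library totals, exact 95% Poisson interval 1.59 to 5.10) and 18 counts in 7 control libraries (3.74 CPM on the same scale, 2.22 to 5.91). The ratio of scKO to control was 0.797, with an exact 95% interval of 0.359 to 1.72. The intervals cover counting error only. A change of the size seen in deep libraries was therefore not detectable at this depth.

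**Figure D3:**
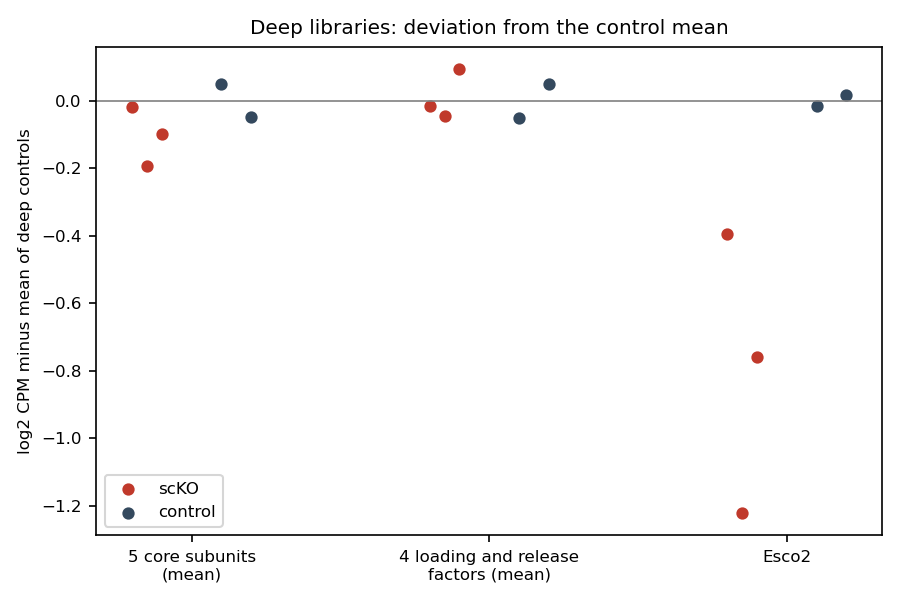
Deviation of each deep library from the mean of the deep controls (log2, vertical axis) for the mean of 5 core subunits, the mean of 4 loading and release factors, and Esco2; each point is 1 library, with scKO left of control. Esco2 lies at -0.39, -1.22 and -0.76 in scKO, and the core mean at -0.02, -0.19 and -0.10.

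Within each deep library, the core and Esco2 could be set side by side. The mean deviation of the 5 core subunits from the deep controls was -0.02, -0.19 and -0.10 on the log2 scale in scKO 6, 7 and 9, and 0.05 and -0.05 in control 1 and 2. That of the 4 loading and release factors was -0.01, -0.05 and 0.09 in scKO, and -0.05 and 0.05 in control. That of Esco2 was -0.39, -1.22 and -0.76 in scKO, and -0.02 and 0.02 in control. A mean over 5 genes with many counts varies less than 1 gene with 21 to 61 counts, and the difference between Esco2 and the core was not tested. In shallow libraries the core mean lay between -0.45 and 0.07 in scKO and between -0.11 and 0.14 in control. In deep libraries, all scKO libraries lay below all controls for 4 of the 10 genes (Smc1a, Stag1, Pds5a and Esco2), against 20.9% of tested genes, and above all controls for 0 of the 10, against 24.3%. In shallow libraries it was 0 of 10 in both directions, against 0.101% below and 0.217% above.

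Other genes of the cohesin cycle were taken from lists, again chosen with results of these data known. The partners of loading and acetylation moved in no common direction in deep libraries. Of 6 tested, Cdca5 was called lower and Usp13 higher, where 14.3% of tested genes were called in either direction. Cdca5 encodes sororin, which binds acetylated cohesin and holds off Wapl. It had 21, 28 and 23 counts in deep scKO 6, 7 and 9, and 39 and 61 counts in deep control 1 and 2, which was 2.97, 3.66 and 3.37 CPM in scKO and 7.24 and 7.62 CPM in control. All scKO libraries lay well below both controls, and 20.9% of tested genes had all scKO libraries below all controls. Its log2 fold change was -1.17 (SE 0.25, adjusted p = 0.00676 by edgeR). Usp13, a deubiquitinase, was at 55.5, 53.1 and 52.1 CPM in deep scKO and 42.9 and 41.1 CPM in deep control (log2 fold change 0.34, adjusted p = 0.0473 by edgeR). Hdac8, the deacetylase that removes the mark Esco2 sets, had a log2 fold change of -0.85 (SE 0.32, adjusted p = 0.0923 by edgeR). Esco1, the paralog of Esco2 that acts outside replication, had one of 0.54 (SE 0.27, adjusted p = 0.211 by edgeR). Esco1 was at 9.35, 7.06 and 11.4 CPM in deep scKO and 4.45 and 7.74 CPM in deep control, so its groups overlapped. Mau2, the partner of Nipbl, had a log2 fold change of -0.06 and did not pass.

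Genes that act beside Esco2 at the replication fork were lower in deep scKO libraries. Of 13 fork factors of cohesion establishment, 9 were called lower and 0 higher, where 7.03% of tested genes were called lower, and the list's median log2 fold change was -0.56, against -0.0017 over all tested genes. Chtf18, part of a clamp loader that promotes Smc3 acetylation, was at 1.27, 1.96 and 2.34 CPM in scKO and 3.90 and 4.12 CPM in control (log2 fold change -1.12, adjusted p = 0.0409 by edgeR). Wdhd1, which ties the helicase to the polymerase, fell by 1.05 and Clspn, a fork checkpoint mediator, by 0.96 on the log2 scale (edgeR adjusted p = 0.00293 and 0.0125). Pcna, the sliding clamp to which Esco2 binds, was at 64.1, 83.5 and 77.3 CPM in scKO and 110 and 103 CPM in control (log2 fold change -0.52, adjusted p = 0.00858 by edgeR). The deep groups did not overlap for Chtf18 or Pcna, and all scKO libraries lay below all controls for 20.9% of tested genes. In shallow libraries both genes overlapped. The other calls were Rfc4, Dscc1, Ddx11, Tipin and Rfc2, at log2 fold changes of -0.93 to -0.45. Rfc5, Rfc3, Timeless and Chtf8 had negative values that did not pass. The count of 9 was 5 without control 1 and 5 without scKO 7.

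The replicative helicase and origin genes moved the same way in deep libraries. Of 15, 13 were called lower and 0 higher, against 7.03% of tested genes called lower, with a median log2 fold change of -0.72. Mcm5, a helicase subunit, was at 30.3, 28.8 and 32.9 CPM in scKO and 59.8 and 55.9 CPM in control. Its scKO libraries lay close together and far below both controls (log2 fold change -0.93, adjusted p = 0.000388 by edgeR). For 20.9% of tested genes all scKO libraries lay below all controls. Orc6, of the origin recognition complex, and Cdc6, which loads the helicase, fell by 0.96 and 0.90 on the log2 scale (edgeR adjusted p = 0.00561 and 0.00503). Gins4 and Orc1 did not pass.

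Genes on a list of the separase pathway and cohesin protection, which also holds other mitotic genes, were mostly lower as well. Of 13 genes of the separase pathway and of cohesin protection, 10 were called lower and 0 higher in deep libraries, against 7.03% of tested genes called lower, with a median log2 fold change of -0.75. Espl1, separase, was at 29.5, 27.1 and 27.8 CPM in scKO and 43.4 and 50.3 CPM in control (log2 fold change -0.76, adjusted p = 0.0015 by edgeR). Sgo1, shugoshin, which guards centromeric cohesin, was at 19.5, 20.0 and 20.3 CPM in scKO and 35.1 and 34.1 CPM in control (log2 fold change -0.81, adjusted p = 0.00138 by edgeR). Neither gene overlapped between groups in deep libraries, where all scKO libraries lay below all controls for 20.9% of tested genes. In shallow libraries both overlapped. Cdca8 and Incenp, of the chromosomal passenger complex, fell by 0.83 and 0.84 on the log2 scale (edgeR adjusted p = 0.000217 and 0.00237), and the other calls were Plk1, Birc5, Mad2l1, Cdc20, Aurkb and Sgo2a. Pttg1, securin, which holds separase inactive, had a log2 fold change of 0.09 (adjusted p = 0.559 by edgeR). Bub1 and Haspin had negative values that did not pass.

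**Figure D4:**
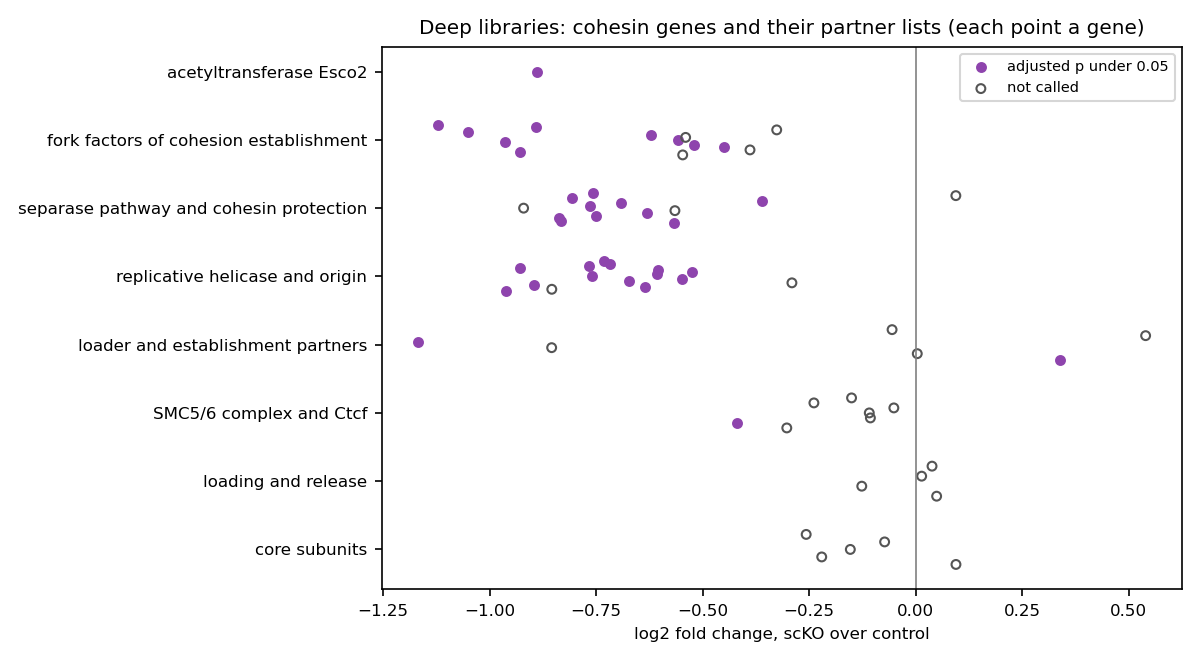
Log2 fold change (scKO over control, deep libraries, horizontal axis) of each tested gene of the cohesin lists (rows are lists, points are genes, filled where the edgeR adjusted p is under 0.05). Core subunits and loading and release factors lie between -0.26 and 0.09. The fork list, the helicase list and the list of the separase pathway and cohesin protection have medians of -0.56, -0.72 and -0.75.

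With depth class as a covariate over all 18 libraries, few of these genes passed, and fewer could be tested. The counts called lower were 0 of 6 fork factors (median log2 fold change -0.24) and 1 of 11 helicase and origin genes (-0.46). On the list of the separase pathway and cohesin protection the count was 1 of 11 (-0.38), where 0.352% of tested genes were called lower. The genes called were Mcm5 (log2 fold change -0.63, adjusted p = 0.0434 by edgeR) and Cdc20, which activates the ligase that starts anaphase (log2 fold change -0.62, adjusted p = 0.0434 by edgeR). The Mcm5 call was lost in at least 12 and the Cdc20 call in at least 13 of the 18 fits that each left out 1 library. Both were lost without control 1, 2, 3 or 9 and without scKO 3, 5, 6, 7, 8 or 9; Mcm5 was also lost without control 5 or scKO 2, and Cdc20 without control 4 or 8 or scKO 4. Both were lost too with the stricter count filter (at least 10 counts in at least 9 libraries), with the group alone and with the replicate number as a block. In shallow libraries alone 0 of 6, 0 of 10 and 0 of 11 were called in these lists, with medians of -0.12, -0.36 and -0.15, where 0.0434% of tested genes were called. A further fit with depth class left out control 7, 8 and 9 and scKO 1, shallow libraries that stood apart in earlier results of these data. The counts called lower in these lists were then 4, 12 and 6, and 0 of the cohesin members were called. Calls over all genes also rose in that fit, to 271 higher and 346 lower, from 25 and 27 with all libraries. How many genes were tested in it is not given here. Over all alternatives the 3 list counts ranged from 0 to 4, 0 to 12 and 0 to 6.

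Related complexes were near the core. Of 7 genes of the SMC5/6 complex and Ctcf, the factor at which cohesin loops stop, 1 was called lower in deep libraries, a share near the 7.03% of tested genes called lower. Nsmce4a, an SMC5/6 subunit, was at 49.6, 54.7 and 50.1 CPM in scKO and 71.3 and 65.1 CPM in control (log2 fold change -0.42, adjusted p = 0.0159 by edgeR). Ctcf was at 52.0, 58.6 and 64.0 CPM in deep scKO and 65.9 and 75.7 CPM in deep control. These groups did not overlap, and all scKO libraries lay below all controls for 20.9% of tested genes. Ctcf did not pass (log2 fold change -0.30, adjusted p = 0.0995 by edgeR). Smc6 had a log2 fold change of -0.24 (adjusted p = 0.0835 by edgeR). Of 4 meiotic cohesin genes, Rad21l was at 0 counts in every library and Stag3 alone could be tested (log2 fold change -0.13, adjusted p = 0.872 by edgeR).

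Levels of the cohesin genes also differed between depth classes among controls, which bears on any comparison across classes. The ratio of the shallow to the deep control mean was 2.84 for Rad21, 2.47 for Smc1a, 1.71 for Pds5a and 1.40 for Pds5b. It was 1.19 for Stag2, 0.92 for Nipbl, 0.80 for Smc3, 0.64 for Wapl, 0.59 for Esco2 and 0.48 for Stag1. Omitting TMM scaling lowered the ratios of all 10 genes by a like factor, to 1.90 for Rad21, 1.65 for Smc1a, 1.14 for Pds5a, 0.93 for Pds5b and 0.80 for Stag2, so whether Pds5b and Stag2 lie above or below 1 depends on the scaling. After correction of UMI collisions, also without TMM scaling, the ratio of Rad21 was 1.47 against 1.90. Those of the other genes rose, to 1.69 for Smc1a, 1.31 for Pds5a and 1.04 for Pds5b. The source of the depth classes is not given in the labels, and its part in these ratios was not tested.

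Across the 18 libraries, taken as deviations from the mean of their depth class, Smc1a and Rad21 varied most alike among the cohesin genes (Pearson r = 0.70), followed by Smc3 and Pds5b (r = 0.61). The 5 genes most like the core mean, among 7657 compared, were Sart1 (r = 0.89), Nsmce1, Polr2e, Ercc8 and Sco2 (r = 0.85 each). Among those most like Esco2, of 7662 compared, were Ercc6 (r = 0.84), Gosr2 (0.83), Nat10 (0.80) and Prr12 (0.75). These are descriptions over libraries that share group and depth. The Esco2 pattern rests on 0 to 5 counts in each of the 13 shallow libraries.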

How the data were processed

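The deposited table held raw UMI counts per gene for all 18 libraries, as made by the authors, per the file headers and values. The tools HISAT2 and HTSeq come from the submitters' processing notes, which list the rat build Rnor_6.0 although the identifiers are mouse Ensembl genes; kit, UMI length and strand use are not given in the sources used here. The members and lists were chosen with earlier results of these data known. Symbols matched 50376 of 50689 features. Positions came from GENCODE M21 (GRCm38) and promoter windows from RefSeq (GRCm38.p6).

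Genes passing filterByExpr were scaled by TMM and tested with edgeR 4.0.16 (quasi-likelihood, robust) in R 4.3.3, with Benjamini-Hochberg adjustment over all genes tested and a threshold of 0.05. The model had group and depth class; each class was also fitted alone, and a product term tested whether the scKO effect differed between classes. Alternatives were DESeq2 1.42.0, limma-voom 3.58.1, other filters and scalings, counts corrected for UMI collisions, and libraries left out. The fits were also run on simulated counts, drawn with the same spread setting for all genes and no limit on counts. The outcome is not given here, and that run does not show whether the deep calls are sound. Replicate counts differed by more than sampling noise in every pair (chi-square per degree of freedom of at least 1.85). A count of 3, the floor, was 0.375 to 8.96 CPM, so rare genes such as Esco2 are imprecise in shallow libraries. Named genes were all 10 members, list genes that passed or otherwise had the smallest p, Hoxa10, and the 5 genes most correlated with Esco2 and with the core mean; values of further list genes were chosen after they were seen. A few genes chosen in this way are not reported here.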

Additional observations from a re-analysis of the deposited data

Results flagged for a closer look

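Among 20 sets of levels checked (10 genes in shallow scKO and in shallow control), 1 held a library far from the others, and chance gives about 1 in 20. Smc3 was at 105 CPM in control 8, while the nearest of the other shallow controls was at 68.2 CPM. The gap was 0.748 of the whole range of the 7 libraries. The value rests on 44 counts.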

How the results depend on the processing

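With depth class as a covariate, 25 genes were called higher and 27 lower, and 0 of the cohesin genes under every alternative run. The counts higher and lower were 164 and 195 with no count filter, 165 and 225 with DESeq2, 11 and 11 with at least 10 counts in at least 9 libraries, 49 and 52 with limma-voom, 0 and 1 with the group alone, and 271 and 346 without the 4 libraries that stood apart. With the replicate number as a block they were 8 and 6. Same-numbered libraries correlated at -0.07 to 0.25 and 3 of 9 scKO libraries correlated best with their own number, so the numbers were not taken as pairs. Leaving out 1 library gave 6 to 95 higher and 5 to 121 lower.

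In deep libraries 960 genes were called higher and 924 lower, and 522 to 837 and 474 to 998 when 1 library was left out. The count of cohesin genes called was 1, or 0 with DESeq2, where Esco2 was at -0.89 (adjusted p = 0.142), and 0 to 2 with 1 library left out, where Esco2 was at -1.16 to -0.66. Without control 2, 1 deep control is left and assumed to vary like the scKO libraries, which alone give the spread; edgeR then called Smc1a (-0.35, adjusted p = 0.0413) and Rad21 (-0.32, adjusted p = 0.0257), and without control 1 Rad21 was at 0.03. Without a count filter over all libraries, Esco2 was at -0.74 (edgeR adjusted p = 0.219).

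In shallow libraries 2 genes were called higher and 1 lower; it was 7 and 6 with no count filter, 5 higher with DESeq2, and 1 to 3 and 0 to 2 with 1 library left out. The difference of the scKO effect between classes called 0 genes with edgeR (473 at unadjusted p under 0.05), 23 higher and 7 lower with no count filter, and 36 and 24 with DESeq2. The cause of these changes was not tested. Of 505 values of single cohesin genes under alternatives, 471 kept their sign.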
